A study of Homo sapiens with 4 samples.

Results

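The CXC chemokine cluster of human chromosome 4 comprised 9 genes, CXCL8, CXCL6, PF4V1, CXCL1, PF4, PPBP, CXCL5, CXCL3 and CXCL2 in order of their start, and they were chosen by gene symbol from the 60048 genes of the deposited table. CXC chemokines are small secreted proteins that bind receptors of the CXCR family. Most proteins of this cluster attract neutrophils through CXCR1 and CXCR2, and epithelial and tumour cells make them on inflammatory signals that reach NF-kB, a family of transcription factors that binds kappaB sites in DNA. PF4 and PPBP are instead stored in platelets and made in their precursors.

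The signal came from EU-seq, which sequences RNA captured after cells have built the uridine analogue 5-ethynyl uridine (EU) into it during a short labelling. All 4 libraries were from HCT116, a colorectal carcinoma line, with the genotype RAD21-mAC, which fuses a degron to RAD21, a subunit of the loop-forming cohesin complex. DMSO was given to the cells of 2 libraries (control), and the auxin indole-3-acetic acid, at 0.5 mM over 3 h, to those of the other 2 (auxin) so that RAD21 would be lost. Cells of both groups were labelled with EU at 0.5 mM for 20 min. The series asked how loss of cohesin bears on transcription. Control cells carried the tag as well, no cells without it entered this comparison, and the labels do not say whether the line was 1 clone or whether replicates were separate cultures, so the p-values measure only the spread between these libraries. Depletion takes place at the protein, so RNA values do not check it.

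The promoters of 6 members shared the kappaB letters GGAATTTCC, and they are shown first because kappaB sites are the best known control elements of these genes. RefSeq promoter windows (GRCh38.p14, 250 bases before to 50 after the start) were at hand for 8 of the 9 members, all but PF4. The letters lay in 6 of these 8 windows, and in 162 of all 35116 promoter windows of the table (0.461%). Their first base fell at -91 (CXCL8), -90 (CXCL5), -89 (CXCL6), -78 (CXCL1 and CXCL3) or -77 (CXCL2) from the start. Each line below gives 60 bases, 5′ to 3′ along the gene, with the kappaB letters in capitals.
CXCL8 (plus strand, chr4:73740458-73740517): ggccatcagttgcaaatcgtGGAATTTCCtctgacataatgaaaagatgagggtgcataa
CXCL6 (plus strand, chr4:73836569-73836628): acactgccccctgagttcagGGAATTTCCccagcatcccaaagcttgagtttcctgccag
CXCL1 (plus strand, chr4:73869295-73869354): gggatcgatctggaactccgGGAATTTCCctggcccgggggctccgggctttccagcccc
CXCL5 (minus strand, chr4:73998728-73998787): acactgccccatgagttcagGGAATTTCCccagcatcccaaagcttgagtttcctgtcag
CXCL3 (minus strand, chr4:74038728-74038787): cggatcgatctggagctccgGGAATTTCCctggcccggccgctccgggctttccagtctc
CXCL2 (minus strand, chr4:74099233-74099292): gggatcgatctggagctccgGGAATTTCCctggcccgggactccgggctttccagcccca

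The windows held 2 groups of similar sequence, CXCL5 with CXCL6 and CXCL1 with CXCL2 and CXCL3. Those of CXCL8, PPBP and PF4V1 were like no other of the 8. PF4 had no window, so PF4V1 could not be compared with it. Over the 250 bases before the start, CXCL5 and CXCL6 were identical at 85.3% of aligned positions, CXCL1 and CXCL3 at 81.4%, CXCL2 and CXCL3 at 73.3% and CXCL1 and CXCL2 at 68.0%. Every other pair of the 8 windows lay between 40.5% and 53.1%. Other motifs were searched on both strands of the same windows. The AP-1 letters TGANTCA (N is any base) occurred in 1 of 8 members, CXCL8, against 7.71% of all promoters. The C/EBP letters TTGCNNAA occurred in PPBP and CXCL2 (2 of 8, against 10.5% of promoters). The TATA letters TATAAA occurred in CXCL8, PPBP and PF4V1 (3 of 8, against 11.5%). Their first base lay at -31 in CXCL8 and PPBP but at -221 in PF4V1. A core of the CTCF motif, read as CC, any 3 bases, AGG, any base and GGC, was in 0 of 8 members and in 4.64% of promoters. A match of letters is a description of these windows and not a measured site.

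On chromosome 4 of GRCh38, where all gene positions below lie, the members spanned 358.6 kb, with 4 genes on the plus strand and 5 on the minus strand. Values below are the deposited signal per gene, a scaled quantity and not a number of reads, brought to a common scale between libraries. On the deposited scale the libraries summed to between 61135244 (auxin replicate 1) and 93113007 (auxin replicate 2), and the scaling removed that difference. The number of reads is unknown, so no counting interval is given, and precision rests on 2 libraries a group. A gene was tested when it reached a value equivalent to 10 in at least 2 libraries, and called when limma's Benjamini-Hochberg adjusted p over all 39464 tested genes was under 0.05. Of the members, 5 were tested (CXCL8, CXCL1, CXCL5, CXCL3 and CXCL2), 2 lay below that filter (CXCL6 and PF4) and 2 were at 0 in all 4 libraries (PPBP and PF4V1).

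No member of the cluster was called after auxin, and CXCL8, CXCL1 and CXCL2 differed more between the libraries of each group than between the groups. The count of called members was 0 of 5 tested, against 289 of 39464 genes (0.732%). None of the 5 had an unadjusted p under 0.05, against 10.2% of tested genes. Beside such shares, counts of 0 among 5 genes are not a result about the cluster. CXCL8, CXCL1 and CXCL2 had a log2 fold change above 0, and CXCL3 and CXCL5 one below 0. Their median was 0.11, and the median of all tested genes was 0.0089.

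CXCL8, also known as interleukin 8 and the leading neutrophil attractant of the family, lies first in the cluster (ENSG00000169429, plus strand, 73740569 to 73743716). In control its scaled signal was 102.6 (replicate 1) and 38.9 (replicate 2), and with auxin it was 295.4 (replicate 1) and 43.8 (replicate 2). The groups overlapped, because auxin replicate 1 was the highest of the 4 libraries and auxin replicate 2 lay between the control libraries. Means and SDs (n = 2 each) were 70.7 ± 45.0 for control and 169.6 ± 178 for auxin. Auxin over control gave a log2 fold change of 0.84, standard error 0.73, a 95% interval from -0.78 to 2.47 and a limma adjusted p of 0.830. The value hung on single libraries. It was -0.51 when auxin replicate 1 was left out and 0.15 without control replicate 2. With control replicate 1 left out it was 1.54, and without auxin replicate 2 it was 2.20. In such fits the lone library of a group shows no spread of its own. Without either auxin library, the fit also gave each gene a spread from the trend over all genes in place of its own.

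CXCL2 carried the highest signal per kb of the cluster and lies last in it (ENSG00000081041, minus strand, 74097040 to 74099195); its protein is a neutrophil attractant close in sequence to those of CXCL1 and CXCL3. The scaled signal in replicates 1 and 2 was 247.5 and 111.5 for control and 465.8 and 68.5 for auxin. The auxin libraries held both the highest and the lowest value, so the control values lay between them. Group means were 179.5 ± 96.2 for control and 267 ± 281 for auxin (SD, n = 2 each). On the log2 scale auxin over control was 0.11, standard error 0.70, an interval from -1.44 to 1.66 and a limma adjusted p of 0.991. Leaving out auxin replicate 1 gave -1.26, control replicate 2 -0.46, control replicate 1 0.69 and auxin replicate 2 1.48.

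CXCL1 (ENSG00000163739, plus strand, 73869393 to 73871308) encodes another ligand of CXCR2 and was the second gene per kb. It had a scaled signal of 168.7 and 54.2 in control replicates 1 and 2 and of 196.3 and 71.9 in auxin replicates 1 and 2. In both groups replicate 1 was high and replicate 2 low, and the groups overlapped. The means were 111 ± 80.9 and 134 ± 88.0 (SD, n = 2 each), and the log2 fold change 0.31, standard error 0.55, an interval from -0.91 to 1.52 and a limma adjusted p of 0.952. Its sign turned when control replicate 2 (-0.50) or auxin replicate 1 (-0.40) was left out, and leaving out control replicate 1 or auxin replicate 2 gave 1.13 or 1.03.

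CXCL3 (ENSG00000163734, minus strand, 74036589 to 74038689), close kin of CXCL1 and CXCL2, had control libraries that were alike. Its scaled signal was 61.9 and 55.3 in control and 88.3 and 25.8 in auxin replicates 1 and 2. The auxin libraries lay on either side of both control libraries. Mean signal was 58.6 ± 4.69 for control and 57.1 ± 44.2 for auxin (SD, n = 2 each), and the estimate on the log2 scale was -0.28, standard error 0.51, an interval from -1.40 to 0.84 and a limma adjusted p of 0.953. It ranged from -1.14 without auxin replicate 1 to 0.59 without auxin replicate 2.

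CXCL5 (ENSG00000163735, minus strand, 73995642 to 73998677), an epithelial neutrophil attractant whose promoter window is the closest to that of CXCL6, was low. It had a scaled signal of 21.2 and 13.3 in control and of 13.4 and 6.74 in auxin. The highest library was a control and the lowest an auxin library, while control replicate 2 and auxin replicate 1 were nearly equal, so the groups just overlapped. Control and auxin means were 17.2 ± 5.58 and 10.1 ± 4.70 (SD, n = 2 each), and the log2 fold change -0.76, standard error 0.62, an interval from -2.13 to 0.62 and a limma adjusted p of 0.808. It stayed below 0 whichever library was left out, from -0.31 without auxin replicate 2 to -1.20 without auxin replicate 1. The lncRNA gene AC097709.1 overlaps CXCL5 on the opposite strand, and whether the authors counted by strand is not given in the sources used here.

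CXCL6 (ENSG00000124875, plus strand, 73837187 to 73849064), a ligand of both CXCR1 and CXCR2, had too little signal to be tested. Its scaled signal was 7.63 and 7.17 in control and 2.67 and 3.37 in auxin. Both auxin libraries lay below both control libraries, as did those of 18.0% of the 50810 genes above 0 in at least 1 library. The means were 7.40 ± 0.324 and 3.02 ± 0.490 (SD, n = 2 each). These values stood for 9, 7, 3 and 3 of the smallest steps of their libraries. With no filter on low values its log2 fold change came to -1.06, standard error 0.67, with a limma adjusted p of 0.755. The RefSeq gene of CXCL6 runs from 73836678, the start from which its promoter window was counted, to 73838760. The table's span starts later, at 73837187, and ends at 73849064. That longer span, over which its value per kb is taken, takes in the pseudogene PPBPP1.

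The platelet chemokine genes were at or near 0. PF4 (platelet factor 4, minus strand, 73980811 to 73982027) held 1 step in control replicate 1 and 1 in auxin replicate 2, and was listed at 0 in the other two. PPBP (the precursor of NAP-2, minus strand, 73986439 to 73988190) and PF4V1 (a variant copy of PF4, plus strand, 73853296 to 73854483) were listed at 0 in all 4 libraries. No difference between groups could be measured for these 3 genes. Fewer cells making an RNA and less RNA per cell cannot be told apart in such bulk libraries, and this holds for every member.

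**Figure D1:**
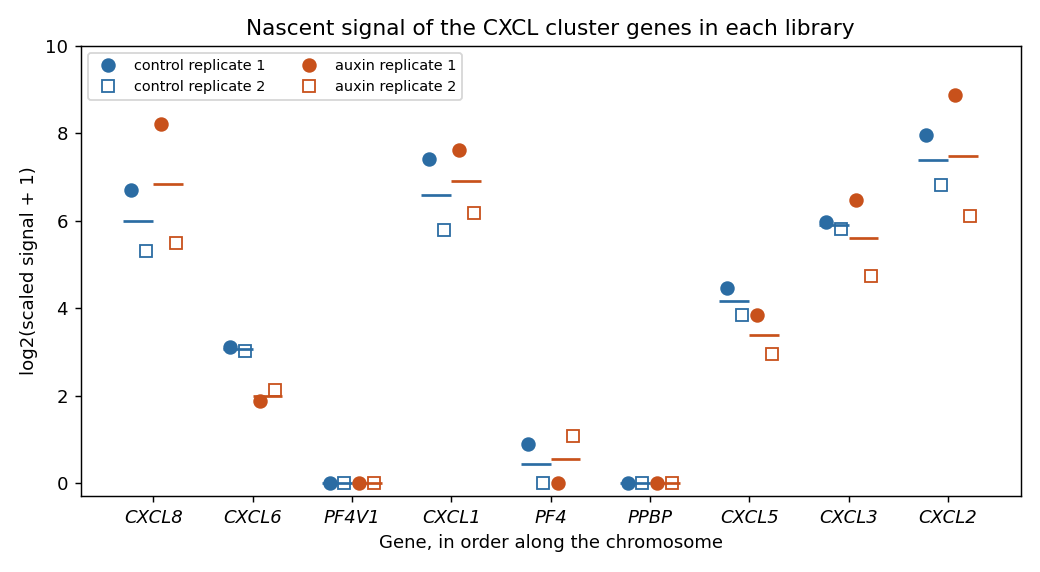
Signal of each member gene in the single libraries, as log2(scaled signal + 1) on the vertical axis, with genes in chromosomal order; circles are replicate 1, open squares replicate 2, colours the groups and short lines the group means on the log2 scale. For CXCL8 and CXCL2 the highest point is auxin replicate 1 (scaled signal 295.4 and 465.8), while auxin replicate 2 (43.8 and 68.5) lies within or below the control points.

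Between genes, levels were compared per kb of gene span, since signal in nascent RNA covers introns. The mean over the 4 libraries was 103.6 per kb for CXCL2, 64.1 for CXCL1, 38.2 for CXCL8, 27.5 for CXCL3, 4.50 for CXCL5, 0.438 for CXCL6 and 0.406 for PF4. The library ranges of CXCL2 (31.8 to 216), CXCL1 (28.3 to 102), CXCL8 (12.4 to 93.8) and CXCL3 (12.3 to 42.0 per kb) overlapped. These genes were measured in the same libraries, so the ranges do not settle their order. Within single libraries CXCL2 and CXCL1 were each above CXCL8 and CXCL3 in 4 of 4, while CXCL2 was above CXCL1, and CXCL8 above CXCL3, in 3 of 4. CXCL5 (2.22 to 6.98 per kb) lay below all 4 of them, and CXCL6 (0.225 to 0.642) lay below CXCL5, in every library. The median of the 17767 tested protein-coding genes was 63.2 per kb, which put CXCL2 at percentile 61.2 of them, CXCL1 at 50.2, CXCL8 at 40.6, CXCL3 at 35.7 and CXCL5 at 19.0. So the most active gene of the cluster lay a little above the middle of the genes tested.

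**Figure D2:**
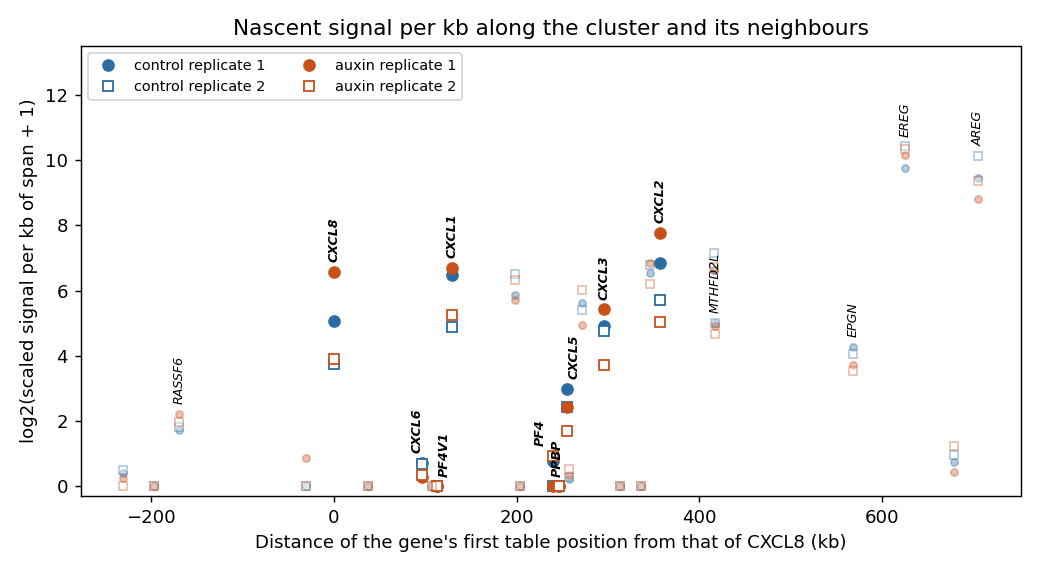
Signal per kb of gene span, as log2(value + 1), in each library against the distance in kb from CXCL8, with members in bold colours and neighbouring genes pale. On the linear scale CXCL2, CXCL1, CXCL8 and CXCL3 carry means of 27.5 to 103.6 per kb, PF4, PPBP and PF4V1 are at or near 0, and EREG at the right stands at 1166 per kb.

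All tested members of the cluster differed between replicates in 1 direction. Replicate 1 was above replicate 2 in both groups for 5 of the 5 tested members, against 31.0% of all tested genes. It was at least 2-fold above in both groups for 3 of them (CXCL8, CXCL1 and CXCL2), against 262 of 39464 genes (0.664%). The ratio of replicate 1 to replicate 2 in control was 2.64 for CXCL8, 3.11 for CXCL1, 2.22 for CXCL2, 1.12 for CXCL3 and 1.59 for CXCL5. In auxin it was 6.74 for CXCL8, 2.73 for CXCL1, 6.80 for CXCL2, 3.42 for CXCL3 and 1.99 for CXCL5. For comparison, the median absolute log2 difference between replicates, over 29158 tested genes with a mean of at least 50, was 0.23 in control and 0.19 in auxin. On that log2 scale the tested members lay between 0.63 and 1.62 in control, except CXCL3 at 0.16, and between 0.89 and 2.75 in auxin. The values 0.63 and 0.89 are those of CXCL5, whose mean is under 50, so it is not among the 29158 genes. Among those genes, ranked by replicate 1 over replicate 2, CXCL2 was at rank 3 and CXCL8 at rank 4 in auxin, with CXCL3 at rank 10 and CXCL1 at rank 31. In control CXCL1 was at rank 23, CXCL8 at 62, CXCL2 at 157 and CXCL3 at 9277. The labels give nothing that sets replicate 1 apart from replicate 2, and what differed between them was not tested.

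**Figure D3:**
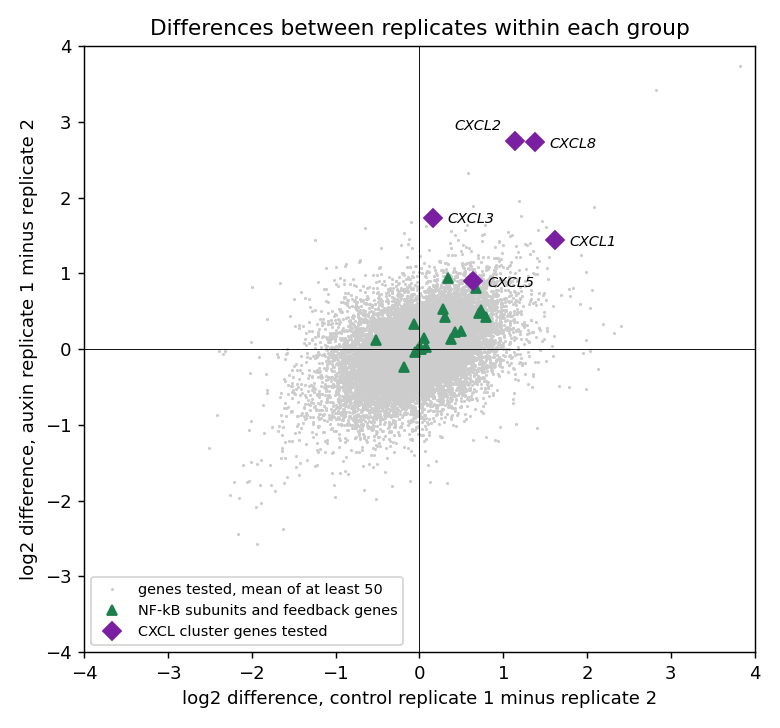
Log2 difference of replicate 1 minus replicate 2 in control (horizontal axis) and in auxin (vertical axis); grey points are tested genes with a mean of at least 50, triangles the NF-kB subunit and feedback genes and diamonds the tested members. CXCL8 (1.38 in control and 2.73 in auxin), CXCL2 (1.14 and 2.75) and CXCL1 (1.62 and 1.44) lie far to the upper right, while CXCL3 (0.16 and 1.74) is shifted mainly in auxin.

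The 3 genes elsewhere in the genome named here were most like the mean pattern of CXCL8, CXCL1, CXCL3 and CXCL2 over the 4 libraries, by the root mean square of the log2 differences after each profile was centred. Among 15981 protein-coding candidates they were HMOX1 (0.263), the gene of haem oxygenase 1, FZD2 (0.281), a Wnt receptor gene, and KIRREL2 (0.297). HMOX1 had a scaled signal of 6657 and 3137 in control and of 7759 and 2764 in auxin. FZD2 had 188 and 94.1 in control and 254 and 97.7 in auxin. With 4 libraries, likeness of this kind is a description only.

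The receptors of these chemokines were scarce in the same cells. No gene of the pathway lists was called except in the EGF family. The called share over all tested genes was 0.732%, so a count of 0 in lists of this size is not a result. CXCR1 was listed at 1.69 and 6.14 in control and at 0 in both auxin libraries, below the filter. CXCR2 had 14.4 and 32.7 in control and 23.2 and 28.1 in auxin, a log2 fold change of 0.22 with a limma adjusted p of 0.968. Of 16 CXC receptors and other CXC chemokines, 9 were tested and 0 called, with a median log2 fold change of 0.22 and 7 above 0. The smallest p among them was that of CXCL17, a mucosal chemokine (log2 fold change 0.46, limma adjusted p = 0.651). CXCL10, CXCL12, ACKR1 and ACKR3 were listed at 0 in all libraries.

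The NF-kB list held 18 subunit and feedback genes, of which 18 were tested and 0 called, with a median log2 fold change of 0.16. Its smallest p was that of RELA, the p65 subunit that binds kappaB sites (log2 fold change 0.28, limma adjusted p = 0.489). The scaled signal of RELA was 5450 and 5382 in control and 6574 and 6570 in auxin. Both auxin libraries also lay above both control libraries for CYLD, NFKBIZ and TRAF1 of this list, and below them for SOD2. Among the 50810 genes above 0 in at least 1 library, 18.0% had both auxin libraries below both control libraries. The share with both above was not taken, so these separations are not read as a result. Replicate 1 was above replicate 2 in both groups for 13 of the 18, against 31.0% of all tested genes, and the median log2 difference was 0.29 in control and 0.23 in auxin. A 2-fold excess in both groups was reached by 0 of the 18, against 0.664% of all tested genes, which for a list of this size is not a result. Among 16 tested signal carriers upstream of NF-kB 0 were called (median 0.07), and replicate 1 was above in both groups for 6. IL1RAP, the shared subunit of interleukin 1 receptors, had the smallest p, with 666 and 624 in control and 401 and 428 in auxin (log2 fold change -0.64, limma adjusted p = 0.218).

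Of 18 other inflammatory cytokine genes 15 were tested and 0 called, with a median log2 fold change of -0.03, and replicate 1 was above in both groups for 5. IL23A, a subunit of interleukin 23, had the smallest p, with 59.3 and 39.9 in control and 93.7 and 94.3 in auxin (log2 fold change 0.94, limma adjusted p = 0.308). Of 12 other transcription factor genes, which include the AP-1 and C/EBP factors, 12 were tested and 0 called (median 0.09). ATF3, a stress-induced factor, had the smallest p, with 1047 and 1536 in control and 2071 and 3187 in auxin (log2 fold change 1.02, limma adjusted p = 0.108). Replicate 1 was above in both groups for 2 of these 12.

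Around the cluster, 39 other genes lay within 1 Mb of its ends or between its members. Of these 23 were tested and 1 was called, BTC, against 0.732% of all tested genes. Between the members lay 9 genes, none of them protein-coding, of which 3 were tested and 5 were at 0 in all libraries. UMLILO, a lncRNA gene before CXCL8 that is singled out here after its values were seen because it is known for acting on this cluster, held 3.57 in auxin replicate 1 and 0 in the other libraries. Upstream of the cluster lay the protein-coding genes COX18 (log2 fold change -0.26), ANKRD17 (-0.12), the albumin family genes ALB, AFP and AFM and the tumour suppressor gene RASSF6 (0.44). None of the tested ones was called (limma adjusted p from 0.658 to 0.949), and ALB, AFP and AFM held at most 22.5. Of 6 tested protein-coding genes downstream, 5 had a log2 fold change below 0: MTHFD2L -0.23, EPGN -0.57, AREG -0.70, BTC -1.17 and PARM1 -0.24, against 0.15 for EREG. The median of all tested genes was 0.0089, and the share of them below 0 was not taken.

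The nearest downstream group was the EGF-family ligand genes EPGN, EREG, AREG and BTC, whose proteins activate the EGF receptor. BTC, betacellulin (minus strand, 74744759 to 74794523, 645.6 kb past CXCL2), had a scaled signal of 556.9 and 514.7 in control and of 265.8 and 212.2 in auxin. Both auxin libraries were well below both control libraries. Its means were 536 ± 29.8 and 239 ± 37.9 (SD, n = 2 each), and it fell by 1.17 on the log2 scale, standard error 0.22, with a limma adjusted p of 0.0423. The call was lost without control replicate 1 (limma adjusted p = 0.0885), control replicate 2 (0.0771) or auxin replicate 2 (0.135), while the log2 fold change stayed between -1.32 and -1.01. It was also lost with scaling by library totals (limma adjusted p = 0.0609), on the deposited scale (0.650), with no filter (0.0654) and with a mean of at least 50 (0.0570). AREG, amphiregulin, had 6946 and 10982 in control and 4433 and 6487 in auxin, with a limma adjusted p of 0.255. It was called without control replicate 1 (log2 fold change -1.02, limma adjusted p = 0.0437) and without auxin replicate 2 (-0.98, 0.000372). EREG, epiregulin, carried 1166 per kb against 103.6 for CXCL2, and its groups overlapped.

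**Figure D4:**
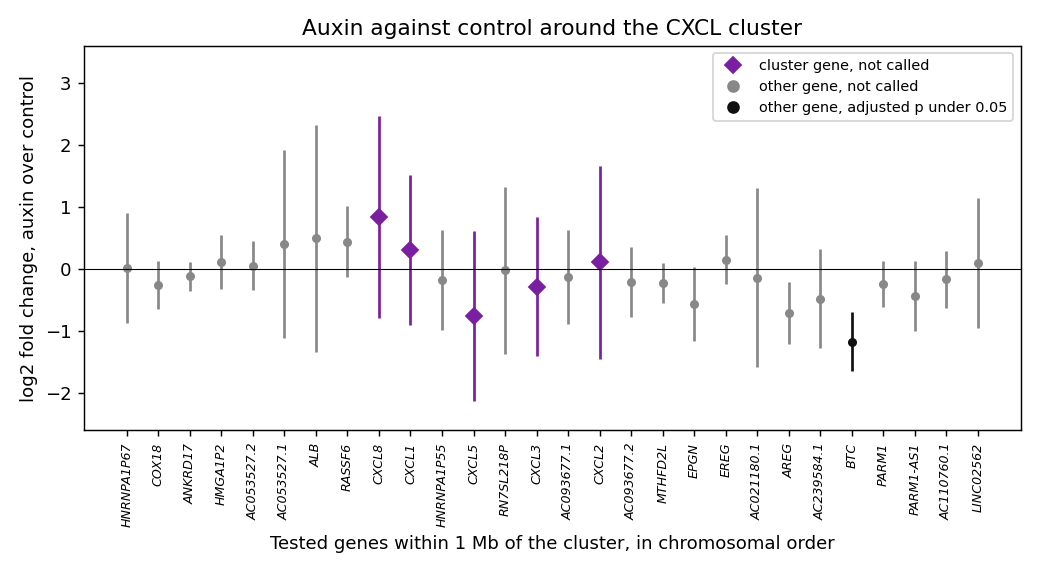
Log2 fold change of auxin over control with unadjusted 95% intervals for each tested gene within 1 Mb of the cluster, in chromosomal order; diamonds are members, grey points other genes and the black point the called gene. The intervals of the 5 tested members all cross 0, and BTC at -1.17 is the only called gene.

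Markers of the labelled cell type were present: 12 of 12 markers of colorectal epithelium were tested, and their summed scaled signal ran from 59202 to 65472 in control and from 58392 to 60562 in auxin, carried by KRT8, CDH1, KRT19, KRT18 and EPCAM, whereas MUC2, CDX1 and CEACAM5 held at most 28.5. Leukocyte markers (6 of 8 tested) summed to 443 and 319 in control and to 363 and 346 in auxin. ITGAM (247 and 163 in control, 192 and 168 in auxin) carried the largest part, and CD3E held at most 6.14. Platelet markers (4 of 5 tested) summed to 7993 and 6680 against 8098 and 8138, carried mostly by GP6 and GP1BA, with GP9 at 0 in 3 libraries. GP6 and TUBB1 overlap other genes, and it is not known whether signal was counted by strand. Fibroblast markers (4 of 5 tested) summed to 652 and 808 in control and 947 and 1089 in auxin, mostly COL1A1. Endothelial markers (4 of 4) summed to 602 and 675 against 701 and 835, and liver markers (2 of 3) to 22.0 and 28.7 against 27.6 and 37.1. Platelet, fibroblast and endothelial sums were higher in both auxin libraries than in either control library, but their markers did not move together. The log2 fold change was above 0 for 1 of 4 tested platelet markers, 3 of 4 fibroblast ones and 3 of 4 endothelial ones, with 0 called. GP6 had 5563 and 4324 in control and 5949 and 6091 in auxin, while GP1BA had 1423 and 1453 against 1156 and 1194. The part of these markers in the results was not tested. The leukocyte sum was higher in replicate 1 than in replicate 2 in both groups. Of the 6 tested leukocyte markers only 3 were, ITGAM among them.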

How the data were processed

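EU-labelled RNA of 4 libraries was sequenced, and 1 table of the series was used. Per the submitters' processing notes, hg38 and dm6 were used with Trimmomatic 0.39, Bowtie2 2.4.5 and deepTools 3.5.1, without roles; fly RNA was added before capture, per the labels' protocols. The counter, annotation and scaling are not given in the sources used here. The deposited signal per gene was taken as scaled: low values (100% of those checked in each library) were multiples of a step (0.847, 1.04, 0.727 and 1.36, tolerance 0.1 of a step), but only 2 to 8 genes of at least 10 kb held a single step, against 141 to 221 that held 2, so steps were not read as single reads and no count test was run. One control column with a misspelt name was taken as control replicate 2, the only match by number.

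In R 4.3.3, genes reaching a value equivalent to 10 in 2 libraries and a total of 15 were kept. TMM factors (trims of 30% on ratios and 5% on levels) over these genes divided the libraries by 0.999, 1.01, 0.816 and 1.21. The log2 of the scaled value plus 1 was fitted with limma 3.58.1 (lmFit, eBayes with trend), with adjustment over all tested genes at 0.05. The fold changes are on that scale, which understates low genes. The procedure was tested on simulated data. The table's starts count from 0, and 1 was added for printing. RefSeq windows were searched with Python 3.11.15 and aligned with Biopython 1.88.

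Members and lists were chosen with earlier results of these data known. Named were all members, each protein-coding or called gene within 1 Mb, called genes of each list or else its smallest p, and the 3 genes most alike; CXCR1, CXCR2, AC097709.1, PPBPP1, AREG and UMLILO were also named for their place or role. Protein sequences were not used here. The alternatives were other scalings, pseudocounts of 0.1 and 10, other filters, a replicate block, a threshold of 0.01, and leaving out each library.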

Additional observations from a re-analysis of the deposited data

How the results depend on the processing

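Over all genes, 289 calls became 55 on the deposited scale, 82 at an adjusted p under 0.01 and 211 to 669 with 1 library left out (669 without auxin replicate 1, 527 without auxin replicate 2). Scaling by library totals called 142 higher and 128 lower, against 131 and 158. Called members were 0 under every scaling, pseudocount and filter tried, and 0 to 2 with 1 library left out, the 2 being CXCL8 and CXCL2 without auxin replicate 2. Left-out libraries moved the log2 fold change from -0.51 to 2.20 for CXCL8, from -0.50 to 1.13 for CXCL1 (-0.40 without auxin replicate 1), from -1.14 to 0.59 for CXCL3, from -1.26 to 1.48 for CXCL2 (-0.46 without control replicate 2) and from -1.20 to -0.31 for CXCL5, and no scaling turned a member's sign. Called genes near the cluster, and called EGF-family genes, both 1 (BTC), became 0 with library totals, the deposited scale, no filter, a mean of at least 50, or an adjusted p under 0.01. With 1 library left out they were 0 to 1: the 1 was BTC without auxin replicate 1, AREG in BTC's place without control replicate 1 or auxin replicate 2, and neither gene without control replicate 2. Called genes of the transcription factor list, 0, ran from 0 to 2 with 1 library left out (2 without auxin replicate 1). The causes were not tested. CXCL5 was too low for a value under the filter at 50.

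A replicate block gave 4273 called genes, with 1 member, CXCL8 (0.84, limma adjusted p = 0.0342), 3 genes near the cluster, 2 of the EGF family, 1 cytokine, 3 NF-kB genes, 2 signal carriers and 5 transcription factors. The numbers are not shown to pair the samples: there are 2 pairs, no label ties them, and the correlation across genes of replicate differences between groups was 0.23, or 0.46 at a mean of at least 50 (genes are not independent replicates). In the blocked fit, on the deposited scale and without either auxin library, limma's prior degrees of freedom were infinite, so every gene took the trend's spread. With 2 libraries a group and an unknown number of reads, the members' intervals span more than 2 log2 units.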

Other observations

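Other genes whose RefSeq promoter window holds the same kappaB letters were looked up after the members' values were seen. Of 147 such symbols 97 were in the table and 85 were tested. Of the 85, 1 was called higher (MSANTD3) and 0 lower, against 0.732% called over all tested genes, near which this count is not a result. The median log2 fold change was -0.04. Replicate 1 was above replicate 2 in both groups for 38 of the 85 (44.7%), against 31.0% of all tested genes. It was at least 2-fold above in both groups for 0 of the 85, against 0.664% of all tested genes, a share near which a count of 0 in 85 genes is not a result.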
